A study of Mus musculus with 12 samples.

Results

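Nuclei were selected from single-nucleus RNA-seq of the left hippocampus by the unique molecular identifier (UMI) counts of a few genes meant to pick pyramidal neurons of CA1, the output neurons of the hippocampus proper, and of the adjoining subiculum. By markers outside the rule 214 of the 321 selected nuclei were CA1-like and 107 were not, and the subiculum markers showed no clear subicular identity, so that the whole set is called the selected nuclei here. A nucleus was selected if it had 500 to 10000 detected genes, a UMI of Slc17a7 (the vesicular glutamate transporter VGLUT1), a UMI of Fibcd1 (a CA1 marker), and a UMI of at least 1 of Wfs1, Mpped1 and Spink8. It could hold no UMI of Prox1, which marks dentate granule neurons, no UMI of the GABA-synthesizing enzymes Gad1 and Gad2, and fewer than 2 UMIs of the oligodendrocyte gene Mobp. The rule found 321 of 184957 nuclei, which is 0.174% of all nuclei and 2.28% of the 14070 nuclei with a Slc17a7 UMI, no Gad1 or Gad2 UMI and fewer than 2 Mobp UMIs.

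The nuclei came from 12 female mice, with 3 mice of the triple-transgenic line 3xTg-AD and 3 wild-type (WT) littermates at 6 months of age, and 3 of each genotype at 12 months. The 3xTg-AD mice, on a mixed B6;129 background, carry the transgenes APPSwe and tauP301L together with a mutant knock-in allele, and the WT mice carry none of these. In this line both transgenes are human coding sequences in a mouse Thy1.2 cassette, which is active mainly in neurons, and reads were aligned to the mouse genome, so that the counts of App and Mapt are those assigned to the mouse genes. Nuclei were sorted before capture, each library held the nuclei of a separate mouse and was numbered from 1 to 12, and the libraries held 79177051 to 128323908 UMIs.

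Pyramidal neurons of CA1 receive excitatory input from CA3 and the entorhinal cortex onto dendritic spines rich in AMPA and NMDA receptors, and they send the output of the hippocampus to the subiculum and beyond. They are among the neurons that degenerate early in Alzheimer's disease, and they are a main site of transgene expression in the 3xTg-AD mouse. Their deep and superficial sublayers differ in gene expression, with Calb1 (calbindin) marking superficial cells and Ndst4 marking deep ones.

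The selected nuclei had a median of 12492 UMIs and 3885 genes. Most of them rested on little evidence from the rule itself, since 246 of the 321 (76.6%) held 1 Fibcd1 UMI, and Mpped1 was the only gene of Wfs1, Mpped1 and Spink8 with a UMI in 154 (48.0%). A Fibcd1 UMI was also found in 2.17% of 60281 nuclei with a Gad1 or Gad2 UMI and no Slc17a7 UMI, which should lack the gene and had a median of 7293 UMIs, and in 0.36% of 9172 nuclei with 5 or more Mobp UMIs and no Slc17a7 UMI, at a median of 2908 UMIs. In the nuclei with a Slc17a7 UMI, no Prox1, Gad1 or Gad2 UMI and fewer than 2 Mobp UMIs, the share was 5.17% of 9478, at a median of 8969 UMIs. Just outside the rule, 3276 nuclei lacked only the Fibcd1 UMI. Man1a, a mannosidase gene that is high in CA1, was at 510 CPM (UMIs per 1000000 UMIs of the summed nuclei) in the selected nuclei and at 236 CPM in those 3276, and Neurod6, a transcription factor of pyramidal neurons, was at 135 and 63.2 CPM. When every nucleus was thinned to 2000 UMIs, 14 nuclei met the rule.

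Neurod2 and Neurod6 are bHLH transcription factors of pyramidal neurons, and factors of this family bind E-boxes such as CAGATG. The 250 bases before the RefSeq start of 2 rule genes are shown. This motif was found in the window of Wfs1, an endoplasmic reticulum protein, and not in that of Fibcd1. The sequences are those of RefSeq on GRCm38.p6, and capitals mark the motif on either strand. The Fibcd1 window is chr2:31846006-31846255 on the minus strand and the Wfs1 window is chr5:36988983-36989232 on the minus strand. In GENCODE, Wfs1 starts at 36989205, inside this window. Most of the Wfs1 window, with the motif, thus lies within the GENCODE gene.
Fibcd1: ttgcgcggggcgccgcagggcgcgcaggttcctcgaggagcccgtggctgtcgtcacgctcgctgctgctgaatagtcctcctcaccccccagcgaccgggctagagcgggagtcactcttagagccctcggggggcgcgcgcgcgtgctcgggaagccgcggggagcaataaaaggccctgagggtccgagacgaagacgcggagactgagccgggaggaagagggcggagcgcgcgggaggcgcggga
Wfs1: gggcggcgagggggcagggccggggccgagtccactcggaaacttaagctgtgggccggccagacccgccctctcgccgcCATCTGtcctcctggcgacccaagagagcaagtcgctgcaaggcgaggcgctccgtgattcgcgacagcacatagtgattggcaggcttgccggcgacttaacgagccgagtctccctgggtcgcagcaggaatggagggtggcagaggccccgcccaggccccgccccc
Of the 13 genes that mark pyramidal neurons, 10 had an entry. The motif was in 2 of their 11 windows, those of Wfs1 and Neurod2, and in 14.4% of all 32851 windows of the same length.

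The label was then checked against 8 pyramidal markers that the rule did not use. The 321 nuclei were clustered among themselves, and a cluster was called CA1-like if at least 6 of the 8 markers were 2-fold higher than in other Slc17a7 nuclei and no glial marker list was raised. These 5712 other Slc17a7 nuclei met the same limits on genes, Prox1, Gad1, Gad2 and Mobp and held no UMI of Fibcd1, Wfs1, Mpped1 or Spink8. The clusters and the names were made from the same counts, so that the differences between clusters are descriptions. By this rule 214 nuclei (66.7%) were CA1-like and 107 (33.3%) were not, and the same 214 were CA1-like at each of 3 clustering resolutions. The median depth was 12508 and 12465 UMIs, and the 14 nuclei that Scrublet called doublets were all among those that were not CA1-like.

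Markers of neighbouring regions were read over the whole of each list, in CPM of the pooled nuclei. Of the 5 subiculum markers, Fn1, Nts and Ly6g6e had no UMI in any CA1-like nucleus, and Slc17a6 (the transporter VGLUT2) and Etv1 were at 4.31 and 71.2 CPM, against 79.3 and 82.4 CPM in other Slc17a7 nuclei. Nts and Ly6g6e were also near 0 in those, at 0.904 and 0.173 CPM. In the 107 selected nuclei that were not CA1-like, Fn1 (14.2 against 2.4 CPM in other Slc17a7 nuclei), Ly6g6e (3.38 against 0.173 CPM) and Etv1 (169 against 82.4 CPM) were higher, and Slc17a6 (33.1 CPM) and Nts (0.676 CPM) were lower. These markers thus did not go one way in the rest of the selected nuclei. All 6 ventral CA1 markers were lower in CA1-like than in other Slc17a7 nuclei. Dcn, Gpc3 and Grp had no UMI there, while Htr2c was at 33.1 CPM with a UMI in 24.3% of the nuclei. In the 107 others 4 of the 6 were higher than in other Slc17a7 nuclei, namely Dcn (6.76 against 2.46 CPM), Htr2c (333 against 207 CPM), Calb2 (17.6 against 9.62 CPM) and Grp (4.05 against 2.23 CPM), and Gpc3 and Nr2f2 were lower. Of the 9 CA3 and CA2 markers, Rgs14 (11.9 against 7.98 CPM) and Cdh24 (16.5 against 12.7 CPM) were higher in the CA1-like nuclei and 7 were lower, with no UMI of Amigo2 or Iyd.

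The 107 other nuclei fell mostly into 1 cluster of 101 nuclei from all 12 libraries, led by Dpp10, Car10, Lrrtm4, Spock1 and Pcdh15, in which 1 of the 8 pyramidal markers was 2-fold higher than in other Slc17a7 nuclei at the resolution of 0.3. At 0.5 there were instead a cluster of 42 nuclei with 5 of the 8 markers raised, 1 short of the 6 required, and one of 59 with 1. At 0.8 there were 46 nuclei with 5, 50 with 2 and 11 with 0, and the 11 had the ventral CA1 markers Gpc3, Dcn and Nr2f2 among their 10 leading genes. Part of the nuclei that were not CA1-like thus lay at the limit of the name. Dpp10, an auxiliary subunit of Kv4 potassium channels, was at 7357 CPM in that cluster and at 13.3 CPM in the CA1-like nuclei. Over all 107 nuclei, 5 of the 6 interneuron markers outside the rule were at 0 to 3.38 CPM, and Adarb2 was at 586 CPM, below its 1484 CPM in other Slc17a7 nuclei. Of the 9 cortical layer markers, Fezf2 (10.1 against 6.75 CPM) and Rspo1 (2.7 against 2.31 CPM) were higher than in other Slc17a7 nuclei, Rorb was at nearly the same level (234 against 235 CPM) and the other 6 were lower. Of the thalamus and habenula markers, Nwd2 (903 against 584 CPM) and Tac2 (24.3 against 11.1 CPM) were higher than in other Slc17a7 nuclei, and the other 4 were lower. The last cluster held 6 nuclei led by the astrocyte gene Slc1a3, and 4 of the 6 were called doublets. These clusters were given no cell type name.

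The libraries differed widely in how many selected nuclei were CA1-like. In 3xTg-AD mice at 6 months, libraries 1, 5 and 9 held 42, 16 and 15 selected nuclei, of which 35, 13 and 12 were CA1-like. In WT mice at 6 months, libraries 3, 7 and 11 held 2, 46 and 12 selected nuclei, of which 0, 26 and 1 were CA1-like. In 3xTg-AD mice at 12 months, libraries 2, 6 and 10 held 11, 25 and 43, of which 0, 0 and 30 were CA1-like. In WT mice at 12 months, libraries 4, 8 and 12 held 16, 28 and 65, of which 13, 25 and 59 were CA1-like. Thus 4 libraries (WT 3 and 11 at 6 months, 3xTg-AD 2 and 6 at 12 months) held at most 1 CA1-like nucleus, and for the 3 of them that held none the counts allow up to 0.0247%, 0.0199% and 0.0191% of their nuclei. Nuclei that met a dentate rule, with Prox1 and at least 2 other dentate markers, were a smaller share in these 4 libraries than in the other 8. Among the 8 the dentate share did not follow the number of CA1-like nuclei throughout. By pooled markers the nuclei of the dentate rule were not a pure set of dentate granule neurons. Adarb2 was at 2108 CPM in them, Rora at 1727 CPM and Tcf7l2 at 245 CPM. All nuclei that were not selected had 1158, 1957 and 238 CPM of these genes. The share of nuclei that met the dentate rule was 0.331% to 0.858% in those 4 libraries and 1.08% to 2.97% in the other 8. The part of these differences in the comparisons of all selected nuclei was not tested.

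**Figure D1:**
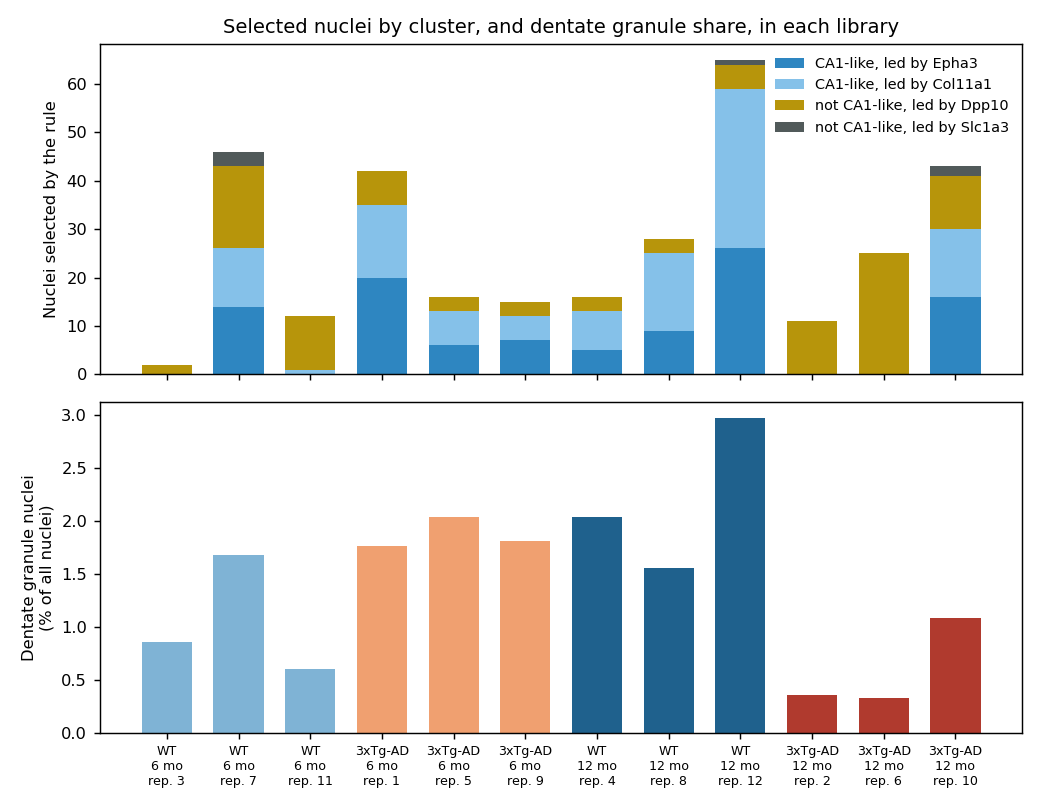
The upper panel gives the number of nuclei selected by the rule in each library, by cluster, with 1 bar per mouse. In the lower panel are the nuclei that met the dentate rule, labelled dentate granule nuclei, as a percent of all nuclei of the library. WT 3 and 11 at 6 months and 3xTg-AD 2 and 6 at 12 months held 0 or 1 CA1-like nuclei. They also had the 4 lowest shares by the dentate rule.

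The share of selected nuclei did not differ between genotypes or ages beyond the spread between mice. It was 0.155% ± 0.0878 (SD, n = 6) in 3xTg-AD and 0.209% ± 0.204 (SD, n = 6) in WT mice (two-sided exact permutation test, p = 0.645). At 6 months it was 0.161% ± 0.118 in 3xTg-AD and 0.127% ± 0.143 in WT mice, and at 12 months it was 0.15% ± 0.0725 and 0.291% ± 0.252 (all SD with n = 3). The exact permutation test gave p = 0.5 at either age, where the smallest p that 3 against 3 mice allow is 0.1. The 6 mice aged 12 months had a share of 0.22% ± 0.183 (SD) and the 6 younger mice one of 0.144% ± 0.119 (SD), with an exact permutation p of 0.481. Single libraries ranged from 0.0165% (WT 3 at 6 months, exact 95% interval 0.002% to 0.0596%) to 0.573% (WT 12 at 12 months, 0.442% to 0.729%), and these intervals cover counting error only. Without WT 12 the genotype difference changed sign to 0.019 percentage points, and at 6 months it changed sign without 3xTg-AD 1 (-0.0343) or WT 3 (-0.0214). Counting CA1-like nuclei only, the share at 6 months was 0.132% ± 0.0999 in 3xTg-AD and 0.0563% ± 0.0922 in WT mice. At 12 months it was 0.0505% ± 0.0874 and 0.26% ± 0.232 (all SD with n = 3). The exact permutation test gave p = 0.5 and p = 0.2 for these.

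The genes of the CA1-like nuclei were compared with the other Slc17a7 nuclei of the same mouse in the 8 libraries with at least 5 CA1-like nuclei, as the log2 ratio of CPM with 5 CPM added, and since those nuclei were clustered on these genes no test was made. All 8 pyramidal markers were higher in 8 of 8 libraries, which restates the naming rule, since clusters were called CA1-like by these markers. By pooled markers the other Slc17a7 nuclei were a mixture, with Rora at 1967 CPM, Adarb2 at 1484 CPM and Tcf7l2 at 273 CPM. All nuclei that were not selected had 1957, 1158 and 238 CPM of these genes. CA3 and cortical pyramidal neurons were not compared separately, so that the ratios do not set CA1 apart from them. The counts below are read against all genes outside the rule. Of 20323 genes with a median above 0 CPM in either kind of nuclei, 3.86% were higher and 32.1% lower in all 8 libraries, and of the 3750 with a median above 50 CPM, 16.2% were higher and 29.9% lower. The medians over libraries of the log2 ratio included 2.66 for Man1a, 2.39 for Itpka (an inositol trisphosphate kinase of dendritic spines), 2.14 for Bcl11b (the transcription factor CTIP2), 1.99 for Pou3f1, 1.64 for Neurod6, 0.77 for Zbtb20 and 0.72 for Neurod2. Other genes that led the CA1-like nuclei were the long noncoding RNA 4921539H07Rik (713 CPM against 35.3 CPM in the other Slc17a7 nuclei), Gm2115 (258 against 12.7), Gm2164 (647 against 47.4), Ror1, a Wnt5a receptor (466 against 38.2), and Galntl6 (6706 against 668).

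Among ionotropic glutamate receptors, the AMPA receptor subunits Gria1, Gria2 and Gria3 and the NMDA receptor subunits Grin1, Grin2a and Grin2b were higher in the CA1-like nuclei of all 8 libraries, and the other 5 of 11 subunits were lower in all 8. Gria1 ranged from 3946 to 4853 CPM over the libraries against 1071 to 1743 CPM in other Slc17a7 nuclei, and Grin2a from 4039 to 5542 CPM against 1419 to 1901 CPM. In both cases the ranges did not overlap. Gria4, which is typical of interneurons and thalamic neurons, ranged from 33.9 to 92.1 CPM against 700 to 960 CPM, and Grin3a from 0 to 30.7 CPM against 79.7 to 177 CPM. Of the 12 kainate and metabotropic glutamate receptors, Grm5, the group I receptor mGluR5, was higher in all 8 libraries (2642 to 3172 CPM against 1299 to 1571 CPM) and 10 were lower in all 8. These included Grik1 (median log2 ratio of -5.19), Grm8 (-5.28) and Grik4 (-3.83), a kainate receptor subunit that is high in CA3.

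GABA-A receptor subunits went in both directions. Gabra5, the subunit of the extrasynaptic receptors that are concentrated in the hippocampus, ranged from 136 to 220 CPM against 56.0 to 79.0 CPM, and it was 1 of 3 subunits that were higher in all 8 libraries, with Gabra2 (median log2 ratio of 0.41). Gabrd, Gabrg1, Gabra4, Gabra3 and Gabrb1 were lower in all 8, and the other 4 of 12 subunits were mixed. For 12 subunits these counts are not set apart from the 16.2% higher and 29.9% lower of all genes above 50 CPM. Nothing is read from them.

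**Figure D2:**
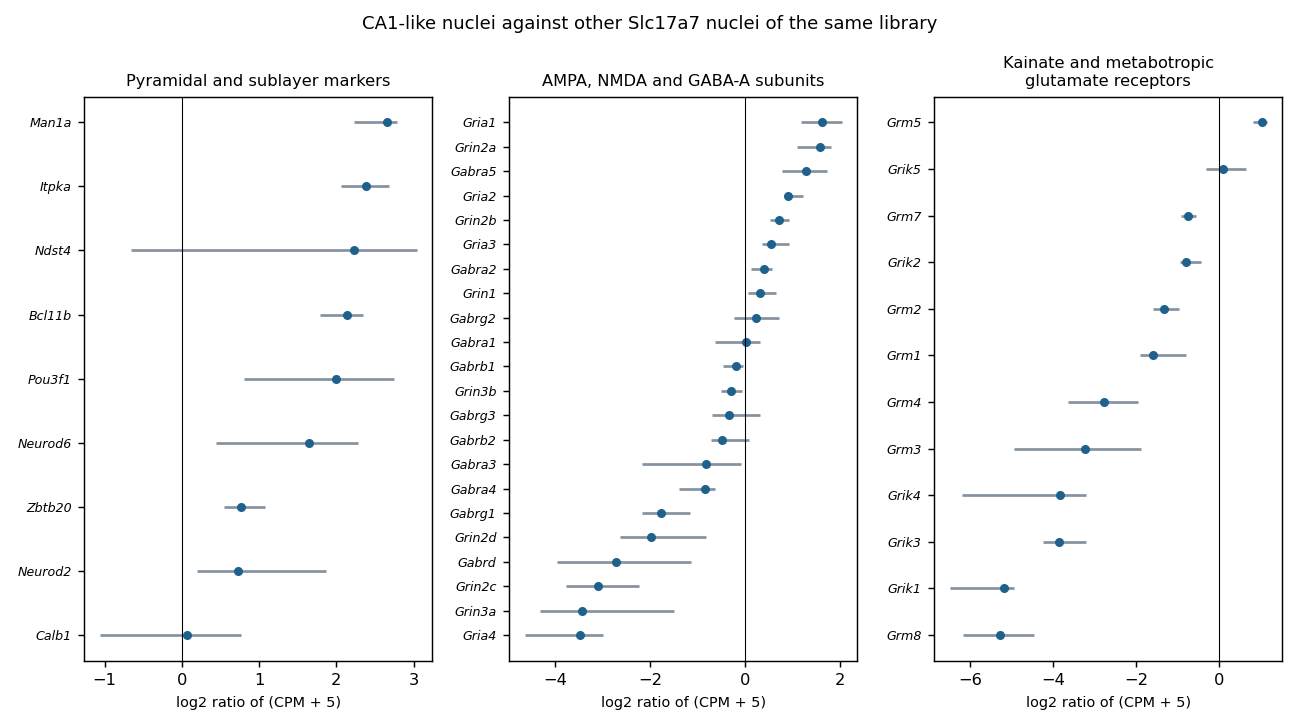
Log2 ratio of CPM (5 CPM added) in CA1-like nuclei over other Slc17a7 nuclei of the same library, 1 row per gene shown, for pyramidal and sublayer markers, ionotropic receptor subunits, and kainate and metabotropic glutamate receptors. Points are medians over 8 libraries and lines run from the lowest to the highest library; Gria1, Grin2a and Grm5 lie to the right of 0 and Gria4, Grik1 and Grm8 to the left in every library.

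At the postsynaptic density, 14 of 26 genes were higher in all 8 libraries and 6 were lower in all 8. The 6 are no larger a share than the 29.9% lower of all genes above 50 CPM. Camk2a, the alpha subunit of the calcium-dependent kinase of synaptic plasticity, ranged from 1347 to 1635 CPM against 597 to 794 CPM, and Nrgn, a calmodulin-binding postsynaptic protein, from 102 to 213 CPM against 40.8 to 87.7 CPM. The AMPA receptor auxiliary subunit Cacng8 (median log2 ratio of 1.41), the calcineurin subunit Ppp3ca (1.25) and the scaffold Dlgap2 (1.25) were also higher. Camk2d, the delta subunit, was lower, with 0 to 22.6 CPM against 279 to 347 CPM.

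Of 31 potassium and HCN channel genes, 9 were higher and 12 lower in all 8 libraries. Kcnd2, the A-type channel Kv4.2, ranged from 5273 to 7353 CPM against 3153 to 3973 CPM. Kcnh7 had a median log2 ratio of 2.32, and Kcnd3 (Kv4.3) one of -3.53. Among 27 sodium and calcium channel genes, 11 were higher in all 8 libraries, including the sodium channel subunit Scn3b (2.04), the calcium channel subunit Cacnb2 (1.75) and the ryanodine receptor Ryr3 (1.17). The 8 that were lower included Cacna1c, an L-type calcium channel (-2.55). In both channel lists the counts of lower genes are not set apart from the 29.9% lower of all genes above 50 CPM. Nothing is read from those counts.

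Of 27 presynaptic genes, 1 was higher and 14 were lower in all 8 libraries. The neurexin Nrxn3 was the 1 that was higher (0.94), while Snap25, a SNARE protein, had a median log2 ratio of -1.50 and Unc13c, a vesicle priming factor, one of -4.72. Of 18 genes of APP processing, 2 were higher in all 8 libraries, 3 lower and 13 mixed. Sorl1, a sorting receptor for APP that is a risk gene for Alzheimer's disease, ranged from 282 to 434 CPM against 78.8 to 133 CPM, and Aph1b, a gamma-secretase subunit, was higher too (0.73), while Aplp2, a relative of App (-0.76), and the amyloid-degrading proteases Ide (-0.70) and Mme (-1.57) were lower. App itself was mixed, with 442 to 583 CPM against 522 to 608 CPM. Mapt (tau) was lower in all 8 libraries (124 to 296 CPM against 326 to 371 CPM). Of 19 immediate early genes, Arc (1.13) and Homer1 (1.16) were higher in all 8, Jun (-1.39) was lower and 16 were mixed. The shares of the APP processing and immediate early genes that were higher lay between the 3.86% and 16.2% of all genes, and nothing is read from them. Of the 214 genes matched to the study's list of 243 Alzheimer's disease risk genes, 199 had a median above 0 CPM in either kind of nuclei, with 16 higher and 59 lower in all 8 libraries. For this list the share that was higher also lay between 3.86% and 16.2%. The share that was lower was close to the 29.9% to 32.1% of all genes, and nothing is read from these counts.

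The CA1-like nuclei formed 2 clusters that differed in sublayer markers. In the 103 nuclei led by Epha3, an ephrin receptor, Calb1 was at 63.9 CPM and Ndst4 at 55.4 CPM. In the 111 nuclei led by Col11a1, a fibrillar collagen gene, Calb1 was at 11.6 CPM and Ndst4 at 720 CPM. Col11a1 itself was at 27.7 and 360 CPM and Car2 (carbonic anhydrase II) at 29.8 and 119 CPM. The Col11a1 cluster made up 42.9%, 53.8% and 41.7% of the CA1-like nuclei in 3xTg-AD 1, 5 and 9 at 6 months, 46.7% in 3xTg-AD 10 and 46.2% in WT 7, and 61.5%, 64.0% and 55.9% in WT 4, 8 and 12 at 12 months.

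The genotypes were then compared within the CA1-like nuclei, a comparison that was chosen after seeing the data. UMIs were summed per mouse over the 8 libraries, 4 of each genotype, and tested with edgeR's quasi-likelihood test with age as a covariate. To be called, a gene needed a log2 fold change beyond 0.2 in either direction and a Benjamini-Hochberg adjusted p, taken over all tested genes, below 0.05. The 12-month 3xTg-AD mice and the 6-month WT mice were represented by 1 library each, 3xTg-AD 10 and WT 7. Without either of them 1 age held a single genotype, so that the genotype difference rested on the other age with 1 library in an arm, assumed to vary like the rest. Of 5185 genes, 15 were called (0.289%), 5 higher (0.0964%) and 10 lower (0.193%) in 3xTg-AD mice, and 283 had an unadjusted p under 0.05. DESeq2 called 4 genes.

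Thy1, a surface glycoprotein of neurons whose regulatory cassette drives both transgenes, was higher in 3xTg-AD mice. The gene lies at chr9:44043384-44048579 on the plus strand (GRCm38). It was at 106, 130 and 66.1 CPM (51, 23 and 13 UMIs) in 3xTg-AD 1, 5 and 9 at 6 months and at 173 CPM (62 UMIs) in 3xTg-AD 10 at 12 months. WT 7 at 6 months was at 29.9 CPM (10 UMIs), and WT 4, 8 and 12 at 12 months at 62.1, 66.0 and 41.4 CPM (11, 18 and 32 UMIs). The lowest 3xTg-AD library and the highest WT library were nearly equal, and the genotypes did not overlap. The log2 fold change was 1.76 (SE 0.27, edgeR adjusted p = 8.61e-05), and without 3xTg-AD 10 it was 1.75 and no longer called (adjusted p = 0.164). In the other Slc17a7 nuclei of the same mice the log2 fold change of Thy1 was 0.51 (SE 0.15, edgeR adjusted p = 0.417). Whether its UMIs came from the gene or from the transgene cassette was not tested.

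The genes App and Mapt were not called. App was at 583, 538, 508 and 528 CPM in 3xTg-AD 1, 5, 9 and 10 and at 442, 525, 554 and 514 CPM in WT 7, 4, 8 and 12, and Mapt at 251, 277, 290 and 279 CPM and at 296, 124, 242 and 283 CPM. Their log2 fold changes were 0.15 (SE 0.17, edgeR adjusted p = 0.998) and 0.08 (SE 0.19, edgeR adjusted p = 1.0). The genes of the rule served only to select the nuclei, and their fitted log2 differences were -0.00 for Slc17a7, 0.26 for Fibcd1, -0.05 for Wfs1, 0.07 for Mpped1 and 0.32 for Spink8.

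Cfap54, a protein of the central apparatus of motile cilia at chr10:92775619-93081618 (minus strand), was lower in 3xTg-AD mice by the largest factor among the called genes that had UMIs in every library. It was at 12.4, 17.0 and 15.3 CPM (6, 3 and 3 UMIs) in 3xTg-AD 1, 5 and 9 and at 8.38 CPM (3 UMIs) in 3xTg-AD 10. In WT 7 it was at 77.7 CPM (26 UMIs), and in WT 4, 8 and 12 at 119, 106 and 129 CPM (21, 29 and 100 UMIs). Every WT library was above every 3xTg-AD library at both ages. The log2 fold change was -2.91 (SE 0.35, edgeR adjusted p = 7.68e-07). The gene remained called in each of the 7 other settings and without any 1 of the 8 libraries, where the fits without WT 7 and without 3xTg-AD 10 had an arm of 1 library. The difference was also present in the other Slc17a7 nuclei of these mice, with a log2 fold change of -2.31 (SE 0.22, edgeR adjusted p = 0.000694).

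The other genes that were higher were Kirrel3, Il1rapl2, Lingo2 and Gm15594. Kirrel3, an immunoglobulin-superfamily adhesion protein, was at 110, 181 and 503 CPM in 3xTg-AD 1, 5 and 9 and at 357 CPM in 3xTg-AD 10, against 89.7 CPM in WT 7 and 79.0, 18.3 and 114 CPM in WT 4, 8 and 12. The lowest 3xTg-AD library lay below the highest WT library. The log2 fold change was 1.89 (SE 0.33, edgeR adjusted p = 0.00112), and 1.44 (adjusted p = 0.28) without 3xTg-AD 10. Kirrel3 was also not called by DESeq2 (1.95), in nuclei with a Wfs1 or Spink8 UMI (1.37) or over all selected nuclei of the 8 libraries (0.48). Il1rapl2, a synaptic adhesion protein related to the IL-1 receptors, ranged from 168 to 456 CPM in 3xTg-AD and from 62.1 to 176 CPM in WT libraries (log2 fold change of 1.20, SE 0.24, edgeR adjusted p = 0.00839), and Lingo2, a leucine-rich repeat membrane protein, from 178 to 488 and from 50.8 to 176 CPM (1.10, SE 0.25, edgeR adjusted p = 0.0326). Neither was called without 3xTg-AD 1 (0.98 and 0.84) or without 3xTg-AD 10 (0.80 and 0.88), and Lingo2 also not without WT 8 (1.03). Both also lost the call by DESeq2 (1.16 and 1.13), with UMIs thinned to the smallest library (1.22 and 1.09), in nuclei with a Wfs1 or Spink8 UMI (1.37 and 1.01) and over all selected nuclei of the 8 libraries (1.12 and 0.15). Gm15594, an antisense RNA at chr6:18424684-18427885, was at 170, 226, 158 and 249 CPM in 3xTg-AD 1, 5, 9 and 10, at 140 CPM in WT 7, and at 33.9, 22.0 and 32.4 CPM in WT 4, 8 and 12 (log2 fold change of 1.68, SE 0.30, edgeR adjusted p = 0.00119). Without 3xTg-AD 10 its log2 fold change was 0.37 (adjusted p = 0.996), and DESeq2 did not call it (1.70). Whether its UMIs include reads of a gene on the other strand was not tested.

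Among the 10 genes that were lower, St6galnac3, a sialyltransferase of ganglioside synthesis, was at 122, 125, 86.4 and 75.4 CPM in 3xTg-AD 1, 5, 9 and 10 and at 317, 401, 121 and 245 CPM in WT 7, 4, 8 and 12. WT 8 lay within the 3xTg-AD range. The log2 fold change was -1.57 (SE 0.26, edgeR adjusted p = 0.000493), and it was called without any 1 of the 8 libraries (with an arm of 1 library without WT 7 or 3xTg-AD 10) but not over all selected nuclei of the 8 libraries (-1.17, adjusted p = 0.582). Inpp4b, a phosphoinositide phosphatase, was at 18.7, 28.3, 25.4 and 8.38 CPM against 32.9, 113, 103 and 122 CPM in the same order (-1.89, SE 0.39, edgeR adjusted p = 0.012), but at -0.54 and not called without 3xTg-AD 10. It was also not called by DESeq2 (-1.91), with thinned UMIs (-1.73), in nuclei with a Wfs1 or Spink8 UMI (0.15) or over all selected nuclei of the 8 libraries (-0.07). Npas2, a circadian transcription factor related to CLOCK, was at 49.8, 51.0, 102 and 78.2 CPM against 176, 147, 103 and 115 CPM (-1.07, SE 0.25, edgeR adjusted p = 0.0459), and it was not called without 3xTg-AD 1 (-0.86), 3xTg-AD 5 (-1.0) or WT 7 (-0.57). Npas2 also lost the call by DESeq2 (-1.04), without the age term (-0.96), in nuclei with a Wfs1 or Spink8 UMI (-0.69) and over all selected nuclei of the 8 libraries (-0.72).

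The other genes that were lower included Gm47283, Gm43154, 4930447C04Rik, Dnah6 and Col11a1. Dnah6, an axonemal dynein of motile cilia like the ciliary gene Cfap54, had 0 to 2.79 CPM in 3xTg-AD libraries and 0 to 59.8 CPM in WT libraries (log2 fold change of -4.49, SE 0.99, edgeR adjusted p = 0.0207), and WT 8 had no UMI. Dnah6 was not called without WT 7 (-2.75), 3xTg-AD 1 (-4.46), 3xTg-AD 5 (-4.27) or 3xTg-AD 10 (-5.31), and without WT 4 it was not tested. It was also not called by DESeq2 (-4.46), in nuclei with a Wfs1 or Spink8 UMI (-4.22) or over all selected nuclei of the 8 libraries (-3.35). The long noncoding RNA Gm43154 had 5.08 to 14.5 CPM in 3xTg-AD and 14.7 to 74.7 CPM in WT libraries (-2.73, SE 0.54, edgeR adjusted p = 0.00747), and it was not called without WT 7 (-2.45), by DESeq2 (-2.80) or over all selected nuclei of the 8 libraries (-1.98). 4930447C04Rik (chr12:72881109-72940774) had 19.5 to 45.6 and 55.0 to 102 CPM (-1.43, SE 0.31, edgeR adjusted p = 0.0163), and it was not called without WT 7 (-1.64) or 3xTg-AD 10 (-1.32), by DESeq2 (-1.49), with thinned UMIs (-1.25), in nuclei with a Wfs1 or Spink8 UMI (-0.64), over all selected nuclei of the 8 libraries (-1.04) or without the age term (-1.06). Gm47283 had 67.0 to 166 and 147 to 628 CPM (-1.86, SE 0.20, edgeR adjusted p = 4.63e-08), and it was not called without the age term (-1.23, adjusted p = 0.0569). It is annotated at chrY:90784738-90816464 and the mice were female, and how its UMIs were assigned was not tested. Col11a1, which defines 1 of the 2 CA1-like clusters, had 55.9 to 133 and 79.0 to 293 CPM (-1.12, SE 0.26, edgeR adjusted p = 0.0373), and the part of the cluster proportions in this value was not tested. The call was lost by DESeq2, with thinned UMIs, in nuclei with a Wfs1 or Spink8 UMI, over all selected nuclei of the 8 libraries and without any 1 of 6 libraries.

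Of the 15 genes, 4 were also called in the other Slc17a7 nuclei of the same mice, with log2 fold changes of similar size. Besides Cfap54 these were Gm47283 (-1.75, edgeR adjusted p = 0.000293), Gm15594 (1.61, edgeR adjusted p = 0.0366) and Col11a1 (-1.16, edgeR adjusted p = 0.0159), and the differences between the 2 kinds of nuclei were -0.02, 0.06 and 0.01 in that order (edgeR adjusted p = 1.0 for each). These differences were thus not limited to CA1-like nuclei. In the other Slc17a7 nuclei the log2 fold changes were 0.06 for Kirrel3, 0.09 for Il1rapl2, 0.22 for Lingo2, -0.12 for St6galnac3, 0.27 for Inpp4b, -0.18 for Npas2, -0.26 for 4930447C04Rik, -1.54 for Dnah6 and -1.07 for Gm43154, none of them called.

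**Figure D3:**
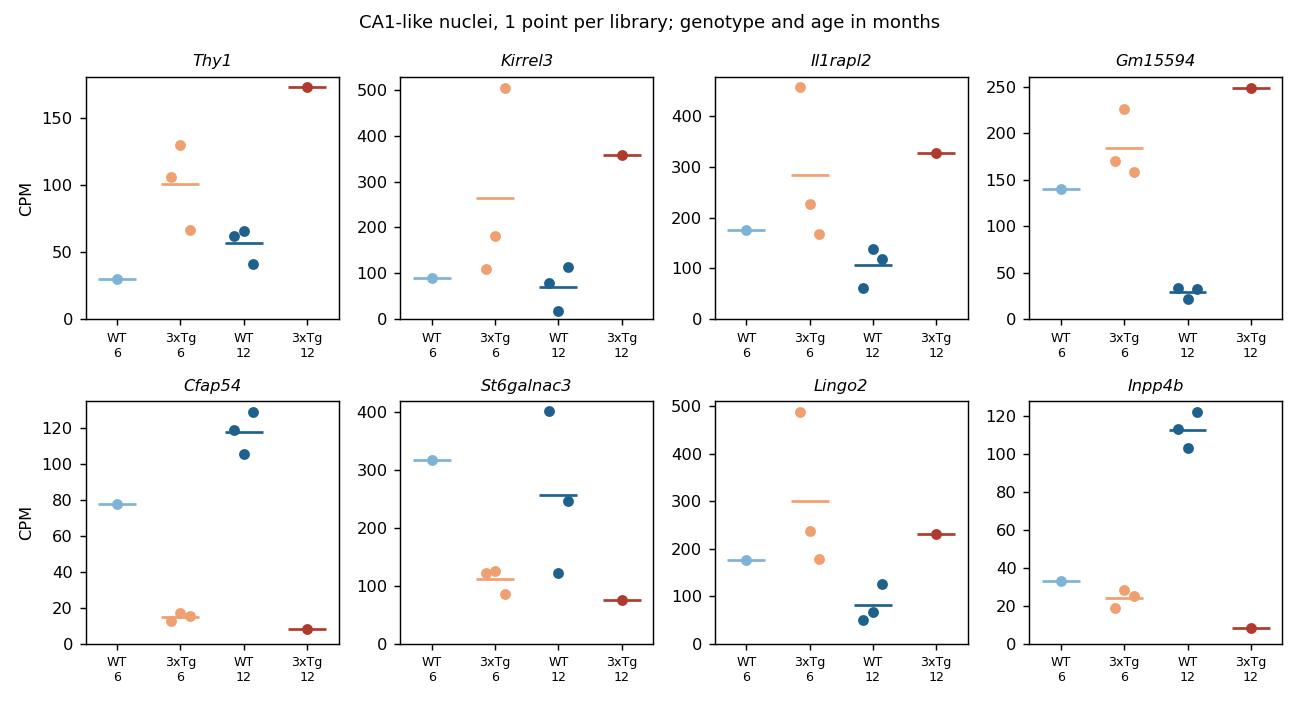
CPM of 8 called genes in the CA1-like nuclei of the 8 libraries with at least 5 of them, by genotype and age in months. Each point is 1 library and each bar the mean of its group; the Cfap54 points of WT mice (77.7 to 129 CPM) all lie above those of 3xTg-AD mice (8.38 to 17.0 CPM), and WT at 6 months and 3xTg-AD at 12 months have 1 point each.

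Several of these genes differed between the 2 CA1-like clusters, whose proportions varied between libraries as given above. In the Epha3 and Col11a1 clusters, Thy1 was at 57.5 and 101 CPM, Kirrel3 at 103 and 221, Inpp4b at 44.7 and 81.5, Gm43154 at 13.5 and 41.5, Il1rapl2 at 275 and 164 and Lingo2 at 334 and 78.6 CPM. Cfap54 (67.5 and 69.9 CPM) and St6galnac3 (183 and 195 CPM) were at nearly the same level in both. The part of cluster proportions in the genotype differences was not tested. For markers of other cell types the ranges of the genotypes overlapped. The 6 astrocyte markers summed to 295 to 545 CPM in 3xTg-AD and 277 to 579 CPM in WT libraries, 6 microglial markers to 5.66 to 64.2 and 31.1 to 73.4 CPM, 5 oligodendrocyte markers other than the rule gene Mobp to 22.6 to 128 and 44.8 to 84.3 CPM, and 6 interneuron markers other than Gad1 and Gad2 to 5.66 to 16.8 and 2.99 to 12.9 CPM. The dentate marker sums were 28.3 to 66.1 and 45.1 to 50.5 CPM. The 8 pyramidal markers summed to 3940 to 4411 and 3708 to 4224 CPM.

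Of the gene lists, the construct list alone had a call, that of Thy1, with 4 of 4 genes tested. None of the 7 AMPA and NMDA receptor subunits, 5 kainate and metabotropic receptors, 9 GABA-A subunits, 25 postsynaptic density genes, 22 presynaptic genes, 21 potassium and HCN channels, 22 sodium and calcium channels, 9 genes of APP processing, 12 genes of tau and its kinases, 11 chaperones and 7 immediate early genes tested was called. Their median log2 fold changes were -0.01, 0.02, -0.10, 0.01, -0.01, 0.01, 0.00, -0.20, 0.01, -0.06 and -0.02 in that order, and the median over all 5180 tested genes outside the rule was -0.00. Of the 71 tested genes of the risk list none was called, with a median of 0.01.

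Whether these genotype differences were particular to CA1-like nuclei was tested against the other Slc17a7 nuclei of the same 8 mice, with the library as a factor. Of 13406 genes, 10 were called (0.0746%), 4 with a difference that was more positive (0.0298%) and 6 more negative (0.0448%) in the CA1-like nuclei, and 521 had an unadjusted p under 0.05. DESeq2 called none, with 179 genes at an unadjusted p under 0.05. The edgeR p-values of this contrast rest mostly on a spread pooled over genes. Kirrel3 had the smallest p, with a difference in log2 fold change of 1.86 (SE 0.22, edgeR adjusted p = 1.55e-12). It was far lower in CA1-like than in the other Slc17a7 nuclei, where it was at 959, 1088, 1511 and 700 CPM in 3xTg-AD 1, 5, 9 and 10 and at 1002, 783, 743 and 810 CPM in WT 7, 4, 8 and 12. Without 3xTg-AD 10 the difference for Kirrel3 was 1.07 and not called, and over all selected nuclei of the 8 libraries it was 0.40 and not called. St6galnac3 differed by -1.45 (SE 0.23, edgeR adjusted p = 1.42e-06), also called without any 1 library but not with thinned UMIs (-1.40) or over all selected nuclei (-1.05), and Thy1 by 1.44 (SE 0.31, edgeR adjusted p = 0.00545), which was not called without 3xTg-AD 10 (0.94) or WT 12 (1.06), with thinned UMIs (1.36), in nuclei with a Wfs1 or Spink8 UMI (1.32) or over all selected nuclei (1.35).

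The other called genes were Il1rapl2 (1.01) and Gm2115 (1.14) in the positive direction, and Inpp4b (-2.18), Cdh10, a cadherin (-0.95), Car2 (-1.55), Zmat4 (-0.87) and Luzp2 (-0.81) in the negative. None of Gm2115, Cdh10, Car2, Zmat4 and Luzp2 was called between the genotypes within the CA1-like nuclei. Gm2115 was at 174 to 407 CPM in 3xTg-AD and 227 to 412 CPM in WT libraries there, which overlapped widely, and at 5.19 to 21.2 and 11.5 to 26.5 CPM in the other Slc17a7 nuclei, so that its contrast is no genotype difference of the CA1-like nuclei. Luzp2 fell outside the rule for named genes and was named after its value was seen. Over all selected nuclei of the 8 libraries none of Il1rapl2, Gm2115, Inpp4b, Cdh10, Car2 and Zmat4 was called, and Inpp4b was at -0.35. With thinned UMIs and in nuclei with a Wfs1 or Spink8 UMI, Inpp4b (-1.91 and -0.16), Cdh10 (-0.90 and -0.67), Car2 (-2.52 and -1.37), Zmat4 (-1.15 and -0.37) and Gm2115 (-0.27 and 1.02) were not called, and Il1rapl2 was not called with thinned UMIs (1.02). Inpp4b was not called without 3xTg-AD 10 (-1.04), Cdh10 not without 3xTg-AD 10 (-0.54) or WT 12 (-0.79), and the calls of Il1rapl2, Gm2115, Car2 and Zmat4 were each lost without 4 of the 8 libraries. These were 3xTg-AD 1, WT 4, WT 7 and 3xTg-AD 10 for Il1rapl2 (0.69, 0.84, 1.12 and 0.89), and 3xTg-AD 1, WT 7, WT 8 and 3xTg-AD 10 for Gm2115 (1.09, 1.22, 0.99 and 1.09). For Car2 they were WT 7, WT 8, 3xTg-AD 10 and WT 12 (-1.88, -1.5, -1.22 and -1.52), and for Zmat4 3xTg-AD 1, WT 4, WT 7 and WT 12 (-0.85, -0.84, -0.41 and -0.88). Car2 and Cdh10 were higher in the Col11a1 than in the Epha3 cluster, with 119 against 29.8 and 752 against 375 CPM. Cfap54 did not pass this test, with a difference of -0.73 (edgeR adjusted p = 1.0), and its own values in the other Slc17a7 nuclei were 25.8, 16.2, 15.4 and 12.5 CPM in 3xTg-AD 1, 5, 9 and 10 and 76.2, 77.3, 105 and 92.0 CPM in WT 7, 4, 8 and 12.

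Over all 321 selected nuclei, summed per mouse, the planned comparison of 3 against 3 mice at 6 months called 1 of 4000 genes (0.025%), with 268 at an unadjusted p under 0.05. That gene was Cfap54, at 11.7, 15.1 and 16.8 CPM in 3xTg-AD 1, 5 and 9 and at 160, 94.6 and 149 CPM in WT 3, 7 and 11 (log2 fold change of -2.97, SE 0.37, edgeR adjusted p = 0.04). WT 3 held 2 selected nuclei, and without it 36 genes were called, Cfap54 among them (-2.94, adjusted p = 0.0121). Without 3xTg-AD 1, 3xTg-AD 5, 3xTg-AD 9 or WT 11 no gene was called, and the log2 fold change of Cfap54 stayed between -3.04 and -2.75. Without WT 7 the count was 12. The 6-month call of Cfap54 was also lost with doublets removed and with all 12 libraries in 1 fit. In CA1-like nuclei its log2 fold change at 6 months was -2.42. There, and with at least 2 Fibcd1 UMIs, WT 7 was the only WT library, so that these fits cannot bear on the call. At 12 months it was not called over all selected nuclei (-1.83, SE 0.50, edgeR adjusted p = 0.122). Cfap54 was at similar levels in the CA1-like nuclei (68.6 CPM) and in the other selected nuclei (78.4 CPM).

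At 12 months, 47 of 4811 genes were called (0.977%), with 44 higher (0.915%) and 3 lower (0.0624%) in 3xTg-AD mice and 693 at an unadjusted p under 0.05. Dpp10 was at 10006, 8889 and 1812 CPM in 3xTg-AD 2, 6 and 10 and at 465, 331 and 115 CPM in WT 4, 8 and 12 (log2 fold change of 4.44, SE 0.71, edgeR adjusted p = 0.0294). Camk2d was at 537, 483 and 93.9 against 31, 24.3 and 29.7 CPM (3.59, SE 0.60, edgeR adjusted p = 0.0294). Rorb, the cortical layer marker, was at 321, 277 and 82.2 against 17.7, 12.1 and 16.6 CPM (3.70, SE 0.53, edgeR adjusted p = 0.0294). In each of them the 3xTg-AD libraries without a CA1-like nucleus, 2 and 6, were the highest, and 3xTg-AD 10, with 30, lay nearer to the WT libraries. These values are sums over nuclei and depend on how many nuclei of each kind a library held, as given below. Levels within the nuclei that were not CA1-like were not compared between genotypes.

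The other genes higher at 12 months included Tiam2, a Rac activator (3.62), Plxdc2 (2.82), the growth factor Pdgfc (2.39), Vav3 (2.30), Slc4a4, a bicarbonate transporter (3.11), Cit (2.41), the kainate receptor subunit Grik3 (4.97), the metabotropic receptor Grm3 (3.26), the AMPA receptor subunit Gria4 (2.84) and the serotonin receptor Htr2c (2.91). Bmpr1b, a BMP receptor, was at 313, 273 and 50.9 CPM in 3xTg-AD 2, 6 and 10 and had no UMI in WT 4, 8 or 12. The lower genes included the transcriptional corepressor Tle1 (-1.74) and C030047K22Rik (-2.39).

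Of the 44 genes higher at 12 months, 43 were at least 2-fold higher in the 107 selected nuclei that were not CA1-like than in the CA1-like ones, as were 7.01% of all tested genes. Of the 107, 11, 25 and 13 came from 3xTg-AD 2, 6 and 10 and 3, 3 and 6 from WT 4, 8 and 12. Both values thus draw on the same nuclei. This count, like those of its kind below, is a description and no independent support. For Dpp10 the levels were 6951 and 13.3 CPM, for Camk2d 438 and 7.55 CPM, for Grik3 227 and 0.359 CPM and for Tiam2 120 and 5.39 CPM. The CA1-like share of the selected nuclei was 0%, 0% and 69.8% in 3xTg-AD 2, 6 and 10 and 81.2%, 89.3% and 90.8% in WT 4, 8 and 12. The 8 pyramidal markers summed over all selected nuclei to 1126, 909 and 3616 CPM in these 3xTg-AD libraries and to 3539, 3874 and 3733 CPM in these WT libraries. The part of this mixture in the differences was not tested. When the comparison was limited to CA1-like nuclei (3xTg-AD 10 against WT 4, 8 and 12), 16 of 5575 genes were called (0.287%), and 5 of the 47 genes were among them in the same direction, 3 higher and 2 lower. The lower ones included C030047K22Rik (-3.36). Without 3xTg-AD 10, 1046 genes were called over all selected nuclei, and without any of the other 5 libraries none was. In each CA1-like fit at 1 age an arm was 1 library, assumed to vary like the others, so that its calls do not show a difference between the genotypes at that age. At 12 months 10 of the 16 genes were higher (0.179%) and 6 lower (0.108%), and at 6 months (3xTg-AD 1, 5 and 9 against WT 7) 2 of 4864 genes were higher (0.0411%) and 8 lower (0.164%), 10 in all (0.206%). Over all selected nuclei Thy1 was not called at 6 months (1.47, edgeR adjusted p = 0.446) or at 12 months (1.25, edgeR adjusted p = 0.111).

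**Figure D4:**
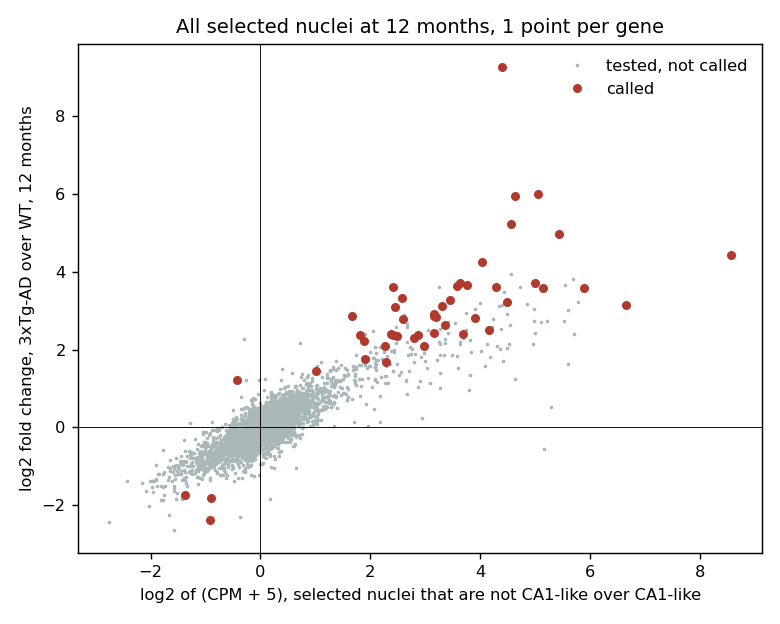
Each point is 1 of the genes tested over all selected nuclei at 12 months. The horizontal axis is the log2 ratio of CPM (5 CPM added) in selected nuclei that are not CA1-like over those that are. On the vertical axis is the log2 fold change of 3xTg-AD over WT, and both axes draw on the same nuclei. Of the 44 genes called higher, 43 lie at a ratio of at least 2-fold, to the right.

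The genotype by age interaction over all 12 libraries called 150 of 5428 genes (2.76%), 149 with a more positive genotype difference at 12 months (2.75%) and Nrgn with a more negative one (0.0184%), and 930 had an unadjusted p under 0.05. Of the 149 genes, 146 were at least 2-fold higher in the nuclei that were not CA1-like, as were 9.46% of the genes tested. Npsr1, a neuropeptide receptor, was at 1.67, 3.78 and 0 CPM in 3xTg-AD 1, 5 and 9 and at 0, 150 and 185 CPM in WT 3, 7 and 11 at 6 months. At 12 months it was at 224, 359 and 43.0 CPM in 3xTg-AD 2, 6 and 10 and at 0, 0 and 4.75 CPM in WT 4, 8 and 12. Its high values were thus in 2 of 3 WT mice at 6 months and in 3xTg-AD mice at 12 months, and WT 7 and 11 at 6 months and 3xTg-AD 2 and 6 held 20, 11, 11 and 25 nuclei that were not CA1-like. Nrgn was at 139, 121 and 168 CPM in 3xTg-AD 1, 5 and 9, at 0, 76.0 and 92.3 CPM in WT 3, 7 and 11, at 74.6, 63.6 and 121 CPM in 3xTg-AD 2, 6 and 10 and at 151, 197 and 142 CPM in WT 4, 8 and 12. In CA1-like nuclei, where the 6-month WT and the 12-month 3xTg-AD arms were 1 library each, 3 of 6027 genes were called (0.0498%), which cannot bear on the 150. Without 3xTg-AD 10 the interaction called 712 genes over all selected nuclei, without WT 7 427 genes, and without 3xTg-AD 1, 2, 5 or 6 or WT 8, 11 or 12 between 57 and 91 genes.

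With age, 27 of 4280 genes were called in WT mice (0.631%), all lower at 12 months, with 383 at an unadjusted p under 0.05. Camk2d had the smallest p, with 31, 24.3 and 29.7 CPM in WT 4, 8 and 12 at 12 months against 320, 264 and 774 CPM in WT 3, 7 and 11 at 6 months (log2 fold change of -3.92, SE 0.48, edgeR adjusted p = 0.0126). Dpp10 (-4.49), Plxdc2 (-2.62), the pyrimidine catabolism enzyme Dpyd (-2.34) and the axon guidance factor Slit2 (-2.82) followed. All 27 were at least 2-fold higher in the nuclei that were not CA1-like, against 6.76% of the genes tested, and the CA1-like nuclei, with WT 7 as the only 6-month library, gave 8 calls (0.147%), 4 higher and 4 lower (0.0734% each), which cannot show whether the 27 recur there. The count over all selected nuclei was 0 without WT 8 or WT 12, 1 without WT 11, 129 without WT 7 and 180 without WT 3. In 3xTg-AD mice none of 4442 genes was called with age by edgeR (0.0%), 491 had an unadjusted p under 0.05, and DESeq2 called 56. Without 3xTg-AD 10, edgeR called 838. In CA1-like nuclei, with 3xTg-AD 10 as the only 12-month library, 2 genes were called (0.0401%), 1 higher and 1 lower (0.0201% each).

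The genotype difference of all selected nuclei was also tested against that of the other Slc17a7 nuclei. At 6 months 102 of 11646 genes were called (0.876%), 8 more positive (0.0687%) and 94 more negative (0.807%) in the selected nuclei, with 776 at an unadjusted p under 0.05. The more positive ones were led by Ror1 (2.12), the IP3 receptor Itpr2 (2.20), Spidr (3.34), Gm2115 (1.51) and Trim27, which had no UMI in the selected nuclei of WT mice, and the more negative ones by Npsr1, Bmpr1b, Grik3, Tll1 and Rftn1. DESeq2 called 2 genes in all and none of these 10, of which 6 were given no adjusted p. With a library left out Ror1 ranged from 1.47 to 4.92 (without WT 11 and WT 7) and Spidr from 3.14 to 8.5 (without 3xTg-AD 1 and WT 7). Ror1 was not called without WT 3, WT 11 or 3xTg-AD 9, and Spidr was not called without any of the 6. Of the 94, 93 were at least 2-fold higher in nuclei that were not CA1-like (9.54% of the genes tested), and of the 8, 6 were at least 2-fold higher in the CA1-like nuclei (2.15%). WT 3 and 11 held 0 and 1 CA1-like nuclei, and the part of this mixture was not tested. With WT 7 as the only WT library, no gene was called in CA1-like nuclei at 6 months by edgeR, with 418 at an unadjusted p under 0.05. The count of 102 was 20 without 3xTg-AD 1, 40 without WT 11, 54 without 3xTg-AD 5 or 3xTg-AD 9 and 160 without WT 7.

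At 12 months 267 of 13229 genes were called (2.02%), 211 more positive (1.59%) and 56 more negative (0.423%), with 1455 at an unadjusted p under 0.05. Of the 211, 207 were at least 2-fold higher in nuclei that were not CA1-like (9.04% of the genes tested), and of the 56, 36 were at least 2-fold higher in the CA1-like nuclei (1.97%). Dpp10 (4.42), Lrrtm4 (3.13), Rorb (3.68), Kirrel3 (2.96) and Htr2c (2.58) led the positive direction. In the negative direction the leading genes were Epha3 (-1.98), Car2 (-2.87), Lmo3 (-2.13), 4921539H07Rik (-1.93) and Iqgap2 (-2.18). With a library left out these 5 ranged from -2.52 to -1.62, -5.03 to -2.44, -2.81 to -1.78, -3.28 to -1.67 and -3.3 to -1.59 in that order. In the CA1-like nuclei, with 3xTg-AD 10 as the only 3xTg-AD library, 16 of 13735 genes were called (0.116%), 6 more positive (0.0437%) and 10 more negative (0.0728%). The count of 267 was 122 to 132 without 3xTg-AD 2, 3xTg-AD 6, WT 4 or WT 12 and 1092 without 3xTg-AD 10.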

How the data were processed

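Per the labels, nuclei of 12 mice were sorted and captured with 10x Genomics 3′ v3 chemistry. Cell Ranger 6.1.1 on mm10 (GRCm38) gave the UMI count matrices that the authors deposited, whole numbers per gene and nucleus that were not normalized and precede removal of ambient RNA. Members of the selection, gene lists and comparisons were chosen with earlier results of these data known. Named genes are, for each comparison of genotypes, the 10 called genes per direction with the smallest adjusted p among those whose genotypes do not overlap; for age, interaction and the contrasts with other nuclei, the 5 per direction with the smallest adjusted p, overlapping or not; called list genes, construct genes, and all genes called in CA1-like nuclei with age as a covariate, which were added after seeing the data.

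Barcodes with 500 to 10000 genes were kept (184957 of 185643). Scrublet (scanpy 1.11.5, expected share of 8%) called 12565 of them doublets, 6.79%, which were retained in the main results. Libraries shared 29 to 107 barcodes per pair, and 1 of the shared barcodes was a selected nucleus in both. Selected nuclei were clustered with 2000 variable genes, 20 components, 15 neighbours and Leiden resolutions of 0.3, 0.5 and 0.8. UMIs were summed per library and tested with edgeR 4.0.16 (quasi-likelihood F test, TMM, filterByExpr, two-sided, R 4.3.3). The p-values measure the spread between mice. DESeq2 1.42.0, other normalization, filters, thinning, doublet removal and left-out libraries were the alternatives. The tests were also run on simulated counts in which all libraries shared 1 profile. Such counts cannot show how the tests behave where libraries differ in their mixture of nuclei. Positions are from GENCODE vM21 on GRCm38. The 9 genes of the rule were not counted among calls of lists. Values of some genes are not reported here.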

Additional observations from a re-analysis of the deposited data

Results flagged for a closer look

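Within a group of libraries, a value was singled out where its gap to the nearest other library was too large a part of the group's range (Dixon's test). Of 40 groups tested, 4 were singled out, and chance gives about 1 in 20. In the CA1-like nuclei of WT mice, Gm15594 was at 140 CPM and Gm47283 at 628 CPM in WT 7, the 1 WT library at 6 months, and in 3xTg-AD mice Gm43154 was at 14.5 CPM in library 1. The share of CA1-like nuclei was 0.52% in WT 12, the highest of its group.

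Differences between the ages in the genotype effect over all selected nuclei, as log2 values, were 11.93 for Npsr1, 9.35 for Sulf1, 6.87 for Dpp10, 6.03 for Camk2d, 7.66 for Grik3 and -1.92 for Nrgn, each called by edgeR. In the CA1-like nuclei of 8 libraries they were 2.69 for Gm15594, 2.95 for AC171003.1 and 3.18 for AC149090.1, where the 6-month WT and the 12-month 3xTg-AD arms had 1 library each. Differences in the genotype effect between CA1-like and other Slc17a7 nuclei, with age as a covariate, were 1.86 for Kirrel3, 1.01 for Il1rapl2, 1.44 for Thy1, 1.14 for Gm2115, -1.45 for St6galnac3, -2.18 for Inpp4b, -0.95 for Cdh10, -1.55 for Car2 and -0.87 for Zmat4.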

How the results depend on the processing

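No paired analysis was possible because the replicate numbers in the labels are unique to each library. Counts of called genes that moved by over 1.5 times are given here, and the cause was not tested. At 6 months (1 gene), no filter on low counts gave 129, DESeq2 30, at least 2 Fibcd1 UMIs 40, CA1-like nuclei 10, doublets removed, thinned sums or all 12 libraries in 1 fit 0, and leaving out a library 0 to 36. At 12 months (47), no filter gave 597, DESeq2 149, at least 2 Fibcd1 UMIs 0, CA1-like nuclei 16, and a library left out 0 to 1046. For the interaction (150) they were 576, 241, 16, 3 for CA1-like nuclei, 25 for thinned sums and 57 to 712. For age in WT (27) they were 215, 71, 69, 8 for CA1-like nuclei, 0 for thinned sums and 0 to 180. For age in 3xTg-AD (0), no filter gave 376, DESeq2 56, CA1-like nuclei 2 and a library left out 0 to 838. Against other Slc17a7 nuclei at 6 months (102), DESeq2 gave 2, thinned sums and CA1-like nuclei 0 and a library left out 20 to 160. At 12 months (267), no filter gave 512, DESeq2 138, at least 2 Fibcd1 UMIs 65, thinned sums 85, CA1-like nuclei 16 and a library left out 122 to 1092.

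For CA1-like nuclei with age as a covariate (15), an analysis whose alternatives were also chosen after seeing the data, DESeq2 gave 4, thinned sums 8, nuclei with a Wfs1 or Spink8 UMI 5, all selected nuclei of the 8 libraries 5 and a library left out 7 to 19. Against other Slc17a7 nuclei (10) the counts were 0, 1, 21, 2 and 3 to 15. In CA1-like against other Slc17a7 nuclei, where an arm was 1 library, the fitted values of Tll1 (0.30, SE 6435.89) and Rftn1 (5.18, SE 5.92) at 6 months and Dpp10 (-0.04, SE 0.66) and Lrrtm4 (-0.42, SE 0.38) at 12 months give no direction, with 0, 0.359, 13.3 and 57.1 CPM in the CA1-like nuclei. Signs turned for Inpp4b (0.15) in nuclei with a Wfs1 or Spink8 UMI, and for Gm2115 (-0.27) with thinned sums. The genotype difference in the share of selected nuclei ranged from -0.0922 to 0.019 percentage points when a library was left out, from -0.0343 to 0.114 at 6 months (-0.0214 without WT 3) and from -0.242 to -0.000429 at 12 months, and the age difference from 0.00627 to 0.107. Of the values for named genes under other settings than left-out libraries, 312 kept direction and call, 136 lost the call and 6 had a fitted value of the other sign. A gene without an adjusted p by DESeq2 was left out of these counts. The 214 CA1-like nuclei, few UMIs per gene and library and 1 library in 2 of the 4 arms limit the precision.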
